A study of Mus musculus with 10 samples.

Results

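The genes described here mark and arm the lymphocytes of the liver: T cells, natural killer (NK) cells, B cells and plasma cells. The set holds 33 genes chosen by name, 24 of T and NK cells and 9 of B and plasma cells. A gene was measured where the platform annotation gave a probe set (a transcript cluster, read as 1 value per array) that symbol alone, which held for 27 of the 33 genes, 18 of T and NK cells and 9 of B and plasma cells, among 14860 genes so measured in the series. Each of the 27 had 1 probe set. Lck, Ctla4, Cd27 and Il2rb had no probe set listed under their symbol, Foxp3 and Klrk1 had only one that also listed other genes, and these 6 were not analysed here.

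The samples were whole livers of male Balb/c mice, which were 8 weeks old when obtained and acclimatized for 1 week. Of the 10 mice, 1 array each, 5 received carbon tetrachloride (CCl4), a hepatotoxin that scars the liver when given repeatedly, for 6 weeks, and 5 mice received oil, the vehicle, for 6 weeks. No mouse carried an engineered allele, as far as the labels say, and the comparison asked which transcripts differ between fibrotic and control livers. Since RNA was taken from whole tissue, fewer cells of a type and less RNA per cell cannot be told apart.

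T cells read antigen through a receptor that signals by the CD3 chains, and the coreceptors CD4 and CD8 divide them into helper and cytotoxic cells. NK cells and cytotoxic T cells kill by releasing perforin and granzymes. B cells carry surface antibody that signals by the CD79 chains, and they mature into antibody-secreting plasma cells. The healthy liver is known for its resident NK and T cells, and in scarring livers lymphocytes can both feed and restrain the fibrosis.

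All arrays carried the mark of hepatocytes: the signal of Alb, which encodes serum albumin, lay between 12.98 and 13.12 in CCl4 livers and between 12.97 and 13.20 in oil livers on the log2 scale that all levels below share. Array medians over the 23332 probe sets ran between 2.54 and 2.66, and Pearson's r for any pair of arrays, taken over probe sets that are no independent replicates, lay between 0.959 and 0.990. In the comparison of CCl4 with oil livers by limma, 147 probe sets rose and 21 fell at an adjusted p under 0.05 (0.630% and 0.0900% of those tested, 0.720% in all), and the median log2 fold change of all probe sets was 0.01.

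The lymphocyte genes gave low signals. Their means over the 10 arrays lay between 1.41 and 3.08, and 21 of the 27 lay below the lowest array median. For a sense of the floor, 718 olfactory receptor genes, which serve the sense of smell and are not known for a role in liver, had a median of their mean signals of 1.36, a 95th percentile of 2.21 and a 99th percentile of 2.72. The mean in CCl4 or in oil livers passed that 95th percentile for 13 of the 27 genes and the 99th percentile for 4, Zap70, Cd5, Tbx21 and Cd79b. The percentiles were taken over means of all 10 arrays, an unlike measure that favours the members. By their own means over 10 arrays, Tbx21, at 2.69, lay below the 99th percentile and Cd8a, at 2.19, below the 95th. Among defining T cell genes, Cd3d and Cd3g had means below the 95th percentile in both groups. The T cell genes Cd3e, Cd4, Cd8a, Cd8b1, Cd2, Cd5 and Zap70 passed it in CCl4 or in oil livers. Among defining B cell genes, Ms4a1 and Cd79a lay below it in both groups, while Cd79b, Cd22 and Pax5 passed it in CCl4 or in oil livers. Probes differ in how brightly they respond, so these values place the signals near the background of the array and do not rank the genes. Signal near background compresses differences, and the fold changes below can understate what happened to the transcripts.

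No lymphocyte gene of the set was called higher or lower. By limma, at an adjusted p under 0.05 over the whole array, 0 of 27 rose and 0 of 27 fell, beside the 0.630% and 0.0900% of all probe sets given above, so that a count of 0 among 27 genes lay near the background. At an unadjusted p under 0.05, Cd22 alone differed, with 11.3% of all probe sets past that limit in either direction. At the thresholds of the study's methods, an unadjusted p under 0.05 in the methods' t-test and a fold above 1.6, 0 of the 27 genes passed in either direction, beside 2.34% of probe sets higher and 0.664% lower. After Benjamini-Hochberg adjustment that test called 0 of the 27 as well, beside 0.0600% of all probe sets. Cd22 was also the only member whose CCl4 and oil arrays did not overlap. That pattern held for 3.89% of all probe sets, 2.73% with the CCl4 arrays on top and 1.16% with them below. A count of 1 among 27 genes lay near that background. The median log2 fold change was -0.03 for the 18 T and NK genes, 0.08 for the 9 B and plasma cell genes and -0.02 for all 27, of which 11 had a positive and 16 a negative value, beside 52.1% of all probe sets with a positive one.

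**Figure D1:**
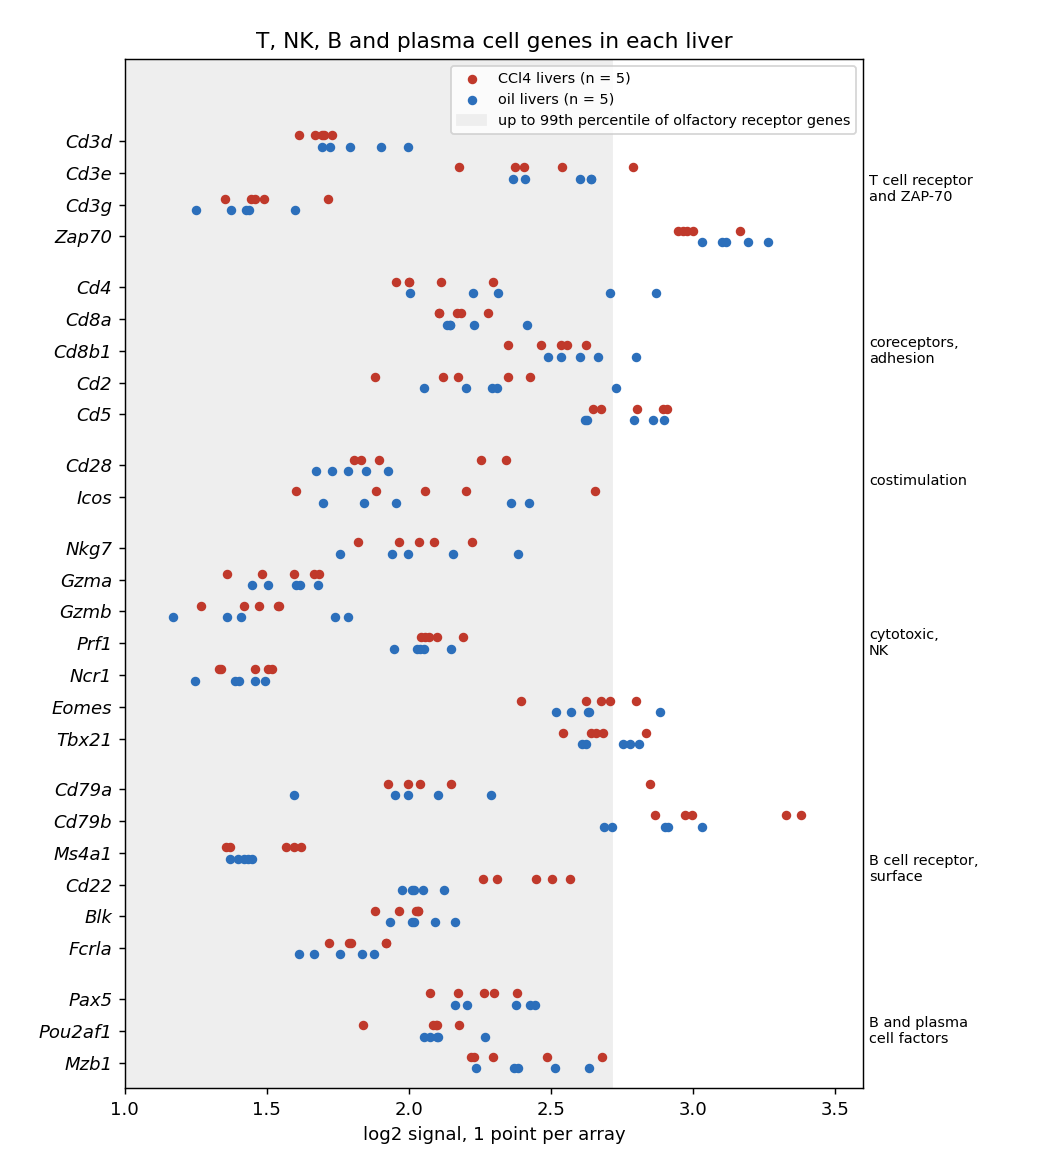
Signal of the 27 measured genes on each array (x axis, log2 signal), with CCl4 livers in red above oil livers in blue and genes grouped by role. The grey band ends at the 99th percentile of the olfactory receptor genes, 2.72, and the red and blue points are separate for Cd22 alone.

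The intervals bound the sizes of change that these arrays leave possible for the measured signal. The 95% confidence interval of the log2 fold change lay within 1 either way, a doubling or halving of signal, for 27 of 27 genes, which 89.9% of all probe sets also showed. It lay within 0.5 either way for 22 genes, beside 57.3% of all probe sets. The exceptions to the narrower bound were Cd4 on the lower side and Cd28, Cd79a, Cd79b and Cd22 on the upper side. The limits farthest from 0 were -0.71 for Cd4 and 0.62 for Cd79a. The median standard error was 0.09 for the 27 genes and 0.14 for all probe sets. These narrow intervals belong to dim signals, and a change of the transcript below what the probes resolve would not widen them.

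**Figure D2:**
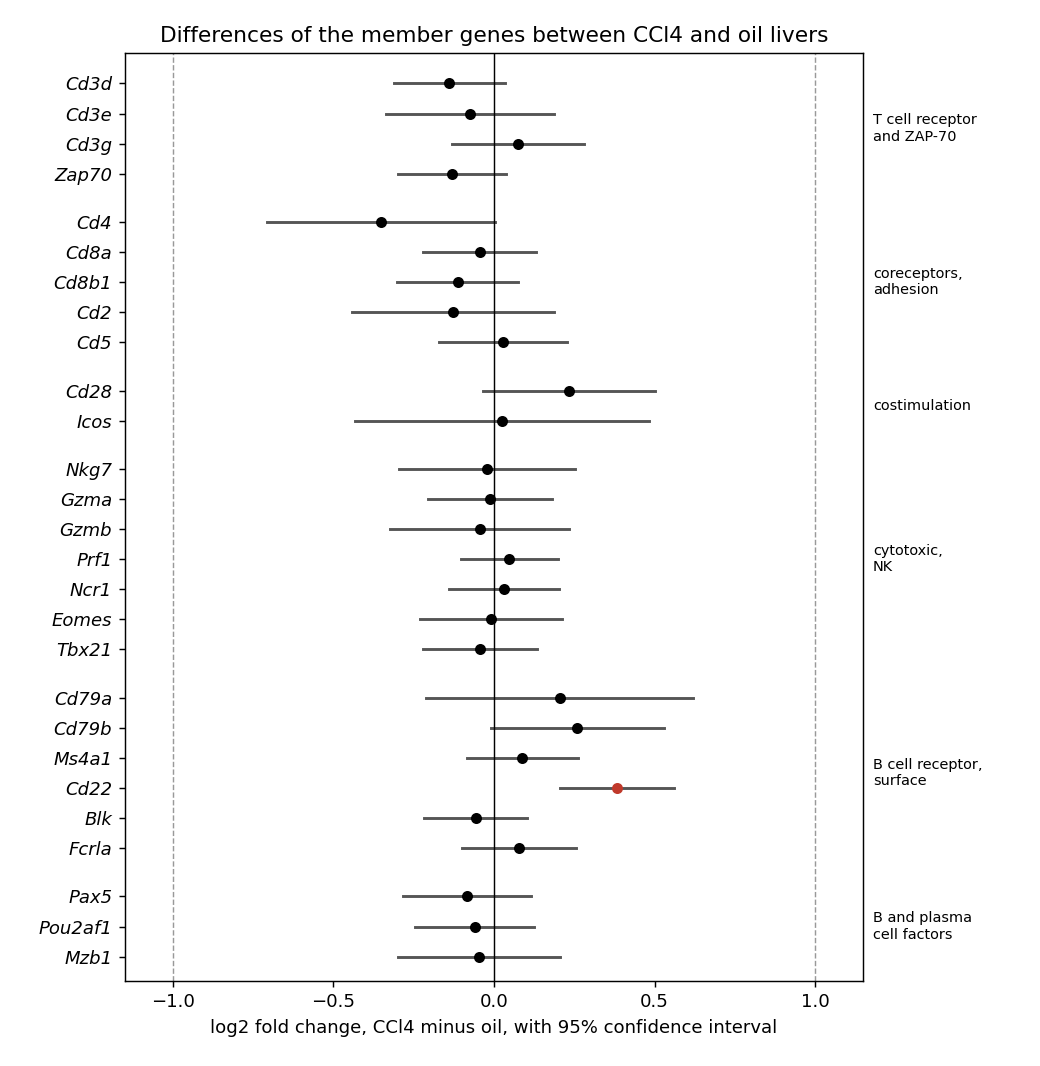
Log2 fold change of each measured gene (x axis, CCl4 minus oil) with its 95% confidence interval from limma, grouped by role, where dashed lines mark 1 either way. All 27 intervals lie between the dashed lines, and Cd22 in red, at 0.38, has the only interval clear of 0.

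Among the genes of the T cell receptor complex, the signal of Cd3d, a CD3 chain, was 1.61, 1.70, 1.73, 1.70 and 1.67 in CCl4 livers, against 1.79, 1.90, 1.70, 1.72 and 2.0 in oil livers. Of the CCl4 arrays, 3 lay below every oil array, yet oil replicates 3 and 4 fell inside the CCl4 range, and the log2 fold change was -0.14 ± 0.08 (SE, n = 5 each; limma adjusted p = 0.564). Cd3e, another CD3 chain, read 2.37, 2.79, 2.54, 2.18 and 2.41 in CCl4 livers, against 2.37, 2.60, 2.64, 2.41 and 2.64 in oil livers. Both the lowest and the highest of the 10 arrays for Cd3e were CCl4 livers, and the log2 fold change was -0.07 (limma adjusted p = 0.895). Cd3g, the third CD3 chain, lay between 1.35 and 1.72 in CCl4 livers and between 1.25 and 1.6 in oil livers, and it was the one gene of the complex with a positive difference, 0.07 (limma adjusted p = 0.859). In the RefSeq gene order, Cd3g, Cd3d and Cd3e are neighbours on chromosome 9 with 0 coding genes between them.

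Zap70, the kinase that docks on the phosphorylated receptor chains, read 3.17, 2.97, 3.0, 2.98 and 2.95 in CCl4 livers, against 3.10, 3.27, 3.19, 3.03 and 3.12 in oil livers. Of the CCl4 arrays, 4 lay below all oil arrays, and CCl4 replicate 1 lay among them. The log2 fold change was -0.13 ± 0.08 (SE, n = 5 each; limma adjusted p = 0.585). The methods' t-test, which estimates the spread from each gene alone, gave Zap70 and Cd3d unadjusted p-values of 0.0495 and 0.0478, and adjusted values of 0.461 and 0.455.

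Of the coreceptors, Cd4 had the most negative difference of the set. Its signal was 2.0, 2.11, 2.30, 2.0 and 1.96 in CCl4 livers, against 2.0, 2.23, 2.71, 2.31 and 2.87 in oil livers. Oil replicates 3 and 5 stood above the rest, while oil replicates 1 and 2 lay within the CCl4 range. The log2 fold change was -0.35 ± 0.16 (SE, n = 5 each), with a 95% confidence interval between -0.71 and 0.0046 and a limma adjusted p of 0.45. Leaving out 1 array at a time moved it between -0.46 and -0.24, and without oil replicates 1 and 2 together it was -0.56 (limma adjusted p = 0.186). Those arrays were left out together because an earlier account of these data set them apart by clock genes. They were also the lowest oil arrays for Cd4, so that leaving them out had to enlarge the difference and is no test of it.

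Cd8a and Cd8b1, which encode the chains of the CD8 coreceptor and lie side by side on chromosome 6, were flatter. Cd8a lay between 2.11 and 2.28 in CCl4 livers and between 2.13 and 2.42 in oil livers, and its difference was -0.04 (limma adjusted p = 0.910). Cd8b1 lay between 2.35 and 2.62 in CCl4 livers and between 2.49 and 2.80 in oil livers, with -0.11 (limma adjusted p = 0.706). The groups overlapped for both chains, with oil replicate 2 the highest array in each. Cd2, an adhesion molecule of T and NK cells, had a difference of -0.13 (limma adjusted p = 0.833) and its highest value, 2.73, in oil replicate 3. Cd5, an inhibitory receptor of T cells and of some B cells, read 2.65 to 2.91 in CCl4 livers and 2.62 to 2.90 in oil livers, with a difference of 0.03 that turned negative under quantile normalization and median centring (limma adjusted p = 0.958).

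Costimulatory receptors give T cells the second signal for activation. Cd28, the classic one, was 1.81, 1.90, 2.25, 2.34 and 1.83 in CCl4 livers, against 1.85, 1.73, 1.93, 1.67 and 1.79 in oil livers. CCl4 replicates 3 and 4 lay above all oil arrays and the other 3 lay within their range, so that the log2 fold change of 0.23 ± 0.12 (SE, n = 5 each; limma adjusted p = 0.523) rested on them. Without CCl4 replicate 4 it was 0.15. Icos, an inducible relative of Cd28 in the same cluster on chromosome 1, read 1.6 to 2.66 in CCl4 livers and 1.70 to 2.42 in oil livers, with the largest standard error of the 18 T and NK genes, 0.21, and a difference of 0.03 (limma adjusted p = 0.985) that became -0.03 under median centring.

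The 7 measured cytotoxic and NK genes had log2 fold changes between -0.04 and 0.05. Their limma adjusted p-values ran between 0.878 and 0.989. Prf1, which encodes perforin, read 2.04, 2.06, 2.19, 2.07 and 2.10 in CCl4 livers, against 2.03, 2.05, 2.04, 2.15 and 1.95 in oil livers. Gzmb, a granzyme that triggers death of the target cell, read 1.47, 1.54, 1.42, 1.27 and 1.54 in CCl4 livers, against 1.36, 1.78, 1.41, 1.74 and 1.17 in oil livers. The oil arrays spread more widely for Gzmb than the CCl4 arrays, with oil replicates 2 and 4 above all others and oil replicate 5 below all others. Gzma, another granzyme, lay between 1.36 and 1.68 in CCl4 livers and between 1.45 and 1.68 in oil livers. Nkg7, a protein of cytotoxic granules, lay between 1.82 and 2.22 in CCl4 livers and between 1.76 and 2.39 in oil livers. Both pairs of ranges overlapped almost completely.

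Ncr1, which encodes the NK receptor NKp46, a mark of NK cells, read 1.33, 1.34, 1.52, 1.5 and 1.46 in CCl4 livers, against 1.5, 1.40, 1.25, 1.46 and 1.39 in oil livers. Its difference of 0.03 had a 95% confidence interval between -0.14 and 0.20. Eomes and Tbx21, T-box transcription factors that set the cytotoxic and NK program, read 2.39 to 2.80 and 2.54 to 2.83 in CCl4 livers, against 2.52 to 2.88 and 2.61 to 2.81 in oil livers. CCl4 replicate 4 was the lowest of the 10 arrays for both factors. Among these 7 genes, the sign of the difference was not stable: it turned under at least 1 of 19 alternative settings for each, under array quality weights for Nkg7, Gzma, Gzmb and Eomes, for example, and under median centring for Prf1 and Ncr1.

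Among B cell genes lay the only difference of the set whose arrays did not overlap. That count, 1 of 27 genes, lay near the 3.89% of all probe sets that did not overlap either. Cd22, a sialic acid-binding receptor that dampens signalling of the B cell receptor, read 2.45, 2.57, 2.26, 2.50 and 2.31 in CCl4 livers, against 2.12, 2.02, 2.05, 1.98 and 2.01 in oil livers. All 5 CCl4 arrays lay above all 5 oil arrays. Means were 2.42 ± 0.13 in CCl4 livers and 2.04 ± 0.06 in oil livers (SD, n = 5 each), which put the log2 fold change at 0.38 ± 0.08 (SE) with a 95% confidence interval between 0.21 and 0.56. In limma the unadjusted p was 0.000651 and the p adjusted over all probe sets 0.0666, which missed the threshold of 0.05. Over the alternatives in which Cd22 was tested the adjusted p lay between 0.0582 and 0.182, and no setting called it. Its highest oil value, 2.12, lay below the 95th percentile of the olfactory receptor genes, and its lowest CCl4 value, 2.26, above it.

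The signalling chains of the B cell receptor were less even. Cd79b read 3.0, 3.38, 3.33, 2.87 and 2.97 in CCl4 livers, against 2.90, 2.69, 2.72, 2.91 and 3.03 in oil livers. CCl4 replicates 2 and 3 were above all oil arrays, and CCl4 replicate 4 was below 3 of the 5. The log2 fold change was 0.26 ± 0.12 (SE, n = 5 each; 95% confidence interval -0.01 to 0.53; limma adjusted p = 0.462). Its partner Cd79a read 1.93, 2.0, 2.15, 2.04 and 2.85 in CCl4 livers, against 2.0, 1.95, 2.29, 2.10 and 1.6 in oil livers. CCl4 replicate 5 alone stood high, and it was not among the high arrays for Cd79b. The log2 fold change of 0.20 (limma adjusted p = 0.778) was 0.04 without that array and 0.11 without oil replicate 5, the lowest. The 2 chains, which are made to pair in 1 complex, had their highest values in different CCl4 livers. CCl4 replicate 3 was the next highest CCl4 array for both. The means of Cd79a lay below the 95th percentile of the olfactory receptor genes in both groups, so its order of arrays is that of a dim signal.

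Cd22 and Cd79a are the B cell members whose promoters are shown, the first because its arrays were the ones that separated and the second because it encodes the receptor chain with the widest interval. Both sequences are RefSeq windows of 300 bases around the gene's start (build GRCm38.p6), of the reference genome and not of these Balb/c mice, written 5′ to 3′ on the gene's strand. The Cd22 window is chr7:30878979-30879278 on the minus strand and the Cd79a window is chr7:24897247-24897546 on the plus strand. Capitals mark E-boxes, CANNTG, the letters bound by basic helix-loop-helix factors such as TCF3 of early lymphocytes, searched on both strands, where the motif reads the same.
Cd22: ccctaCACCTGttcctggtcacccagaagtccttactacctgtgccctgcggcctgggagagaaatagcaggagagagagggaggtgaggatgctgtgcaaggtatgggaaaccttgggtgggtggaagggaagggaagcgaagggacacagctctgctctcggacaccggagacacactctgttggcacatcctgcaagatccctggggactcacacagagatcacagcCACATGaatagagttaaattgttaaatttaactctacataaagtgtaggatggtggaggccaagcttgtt
Cd79a: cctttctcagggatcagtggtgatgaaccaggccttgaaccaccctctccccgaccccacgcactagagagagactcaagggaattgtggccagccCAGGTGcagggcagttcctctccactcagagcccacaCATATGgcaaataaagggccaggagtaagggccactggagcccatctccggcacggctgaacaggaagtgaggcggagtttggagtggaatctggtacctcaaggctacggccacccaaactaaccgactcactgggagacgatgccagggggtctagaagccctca
Each window held 2 E-boxes. Windows were at hand for 23 of the 33 genes, 28 windows in all since some genes have several starts, and 27 of the 28 held an E-box, as did 72.3% of all 32851 mouse windows. The octamer ATGCAAAT, known from antibody gene promoters and read on both strands, was in 0 of the 28 and in 1.74% of all windows. A match is a description of letters in a window, and these arrays carry no measure of binding.

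Ms4a1, which encodes the B cell antigen CD20, read 1.6, 1.62, 1.37, 1.57 and 1.36 in CCl4 livers, against 1.45, 1.37, 1.40, 1.43 and 1.42 in oil livers. For this gene, 3 CCl4 arrays lay above all oil arrays and the other 2 lay below them all, so that the oil livers were nested inside the CCl4 range, with a difference of 0.09 (limma adjusted p = 0.760). Blk, a B cell kinase of the Src family, and Fcrla, an Fc receptor-like protein of B cells, differed by -0.06 and 0.08 (limma adjusted p = 0.860 and 0.808), with overlapping groups.

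The factors that hold B cell identity and the plasma cell gene had small negative differences that did not pass the test. Pax5, the master regulator of B cell identity, read 2.07 to 2.38 in CCl4 livers and 2.16 to 2.44 in oil livers, with a difference of -0.08 (limma adjusted p = 0.821). Pou2af1, a coactivator of antibody gene transcription, read 1.84 to 2.18 in CCl4 livers and 2.05 to 2.27 in oil livers, with -0.06 (limma adjusted p = 0.875). Mzb1, an endoplasmic reticulum protein that helps plasma cells assemble antibody, read 2.22 to 2.68 in CCl4 livers and 2.23 to 2.64 in oil livers, with -0.05 (limma adjusted p = 0.939). The groups overlapped for all 3 genes.

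**Figure D3:**
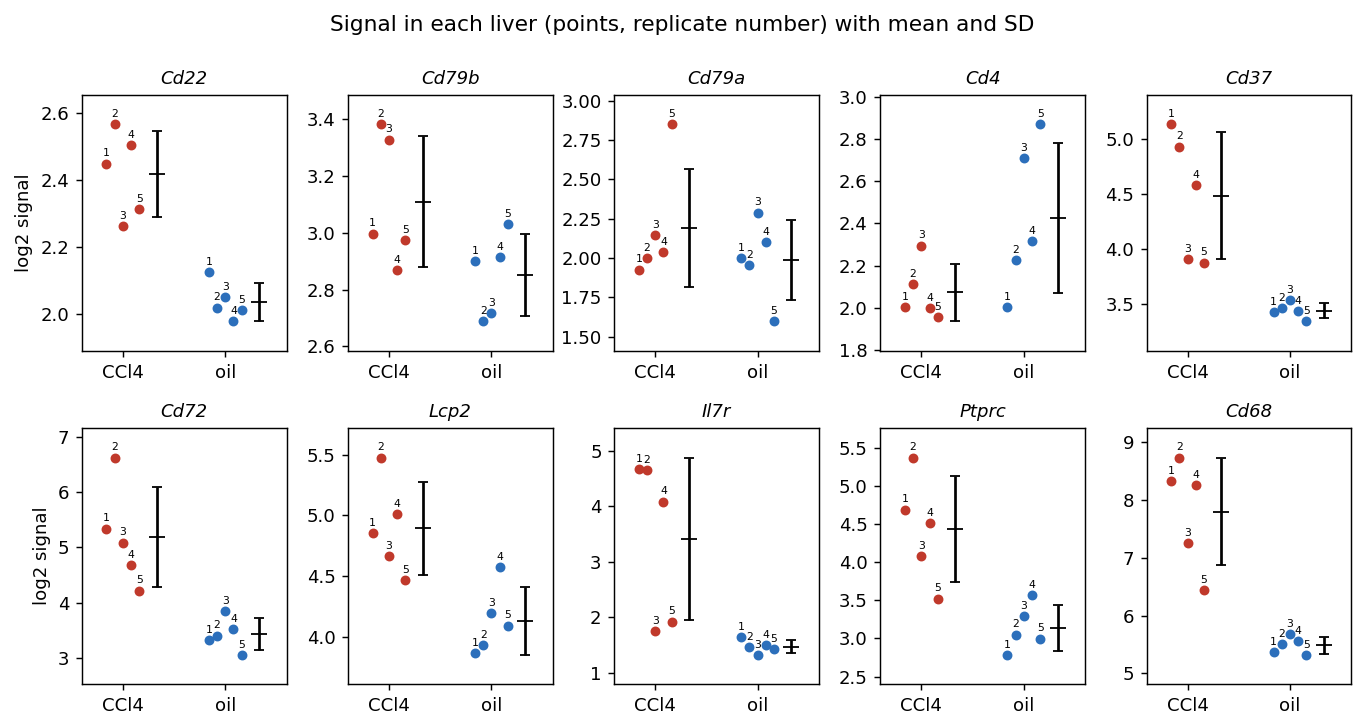
Signal of 10 genes on each array (y axis, log2 signal, with its own scale in each panel that does not start at 0), with points numbered by replicate, CCl4 livers in red to the left of oil livers in blue, and bars for mean and SD. Cd22, Cd37, Cd72, Il7r and Cd68 have every CCl4 array above every oil array, the others overlap, and the single high point of Cd79a is CCl4 replicate 5.

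No single array was the highest or the lowest for most of the 27 genes. CCl4 replicate 3 was the highest of the 10 arrays for 7 of the 27 genes, oil replicate 2 for 6 and CCl4 replicate 2 for 5, while CCl4 replicates 4 and 5 were the lowest for 6 genes each. Genes of leukocytes in general ordered the CCl4 arrays differently. CCl4 replicate 2 was the highest CCl4 array for 8 of 11 pan-leukocyte genes and for 8 of 11 macrophage genes, and CCl4 replicate 5 the lowest for 9 of 11 in each list, whereas among the 27 lymphocyte genes CCl4 replicate 2 was the highest CCl4 array for 6 and CCl4 replicate 5 the lowest for 7. Among the 27, the most frequent were CCl4 replicate 3, the highest CCl4 array for 12, and CCl4 replicate 4, the lowest for 9. CCl4 replicate 4 also had the lowest array quality weight of the 10 arrays, 0.46, with oil replicate 1 next at 0.80. The part of array quality in these orders was not tested.

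Other genes of the same cells and pathways were read from lists of 104 genes, of which 81 were measured. By limma 1 of the 81 rose and 0 fell, with 9 higher and 1 lower at an unadjusted p under 0.05 beside 7.03% and 4.27% of all probe sets. The median log2 fold change was 0.02, and 69 of the 81 had a 95% confidence interval within 1 either way. The gene that rose was Cxcl16, a chemokine made by macrophages and endothelium that draws CXCR6-bearing T and NK cells. It read 5.73, 6.50, 5.84, 6.05 and 5.57 in CCl4 livers, against 4.18, 4.50, 4.87, 5.18 and 4.48 in oil livers. The groups did not overlap, and the log2 fold change was 1.30 ± 0.22 (SE, n = 5 each; limma adjusted p = 0.0303). That call was lost in 7 of the 10 fits that left out 1 array, with adjusted p up to 0.102, and kept where CCl4 replicate 2, CCl4 replicate 5 or oil replicate 4 was the array left out. Cxcr6, the receptor of that chemokine, differed by -0.16 with overlapping groups (limma adjusted p = 0.861). Cxcr4, another chemokine receptor of the same list, differed by 1.11 without overlap (limma adjusted p = 0.0757), and S1pr1, the receptor by which lymphocytes leave lymphoid organs and which endothelium also carries, was the 1 gene lower at an unadjusted p under 0.05, by -0.83 (limma adjusted p = 0.439). These 3 receptors were named after their values were seen.

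Among 20 measured further T cell genes, 0 were called by limma and 2 were higher at an unadjusted p under 0.05, with a median log2 fold change of 0.00. Il7r, the receptor for interleukin-7 on T cells and lymphoid progenitors, had the largest difference of them. It read 4.67, 4.65, 1.75, 4.08 and 1.92 in CCl4 livers, against 1.64, 1.46, 1.32, 1.49 and 1.42 in oil livers. CCl4 replicates 1, 2 and 4 stood far above the oil livers, and replicates 3 and 5 only just above them. The log2 fold change was 1.95 ± 0.58 (SE, n = 5 each; limma adjusted p = 0.187). Lcp2, the adaptor SLP-76 of T cells that myeloid cells and platelets also use, differed by 0.76 (limma adjusted p = 0.123).

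Of 16 measured further B and plasma cell genes, 0 were called by limma and 4 were higher at an unadjusted p under 0.05, with a median of 0.03. Cd72, a coreceptor of B cells that some macrophages also carry, read 5.34, 6.63, 5.09, 4.68 and 4.22 in CCl4 livers, against 3.32, 3.40, 3.84, 3.51 and 3.05 in oil livers. Cd37, a tetraspanin of B cells and other leukocytes, read 5.13, 4.93, 3.90, 4.58 and 3.87 in CCl4 livers, against 3.43, 3.46, 3.53, 3.43 and 3.34 in oil livers. Neither gene's groups overlapped, and CCl4 replicate 5 was the lowest CCl4 array for both. Their log2 fold changes were 1.76 ± 0.38 and 1.04 ± 0.24 (SE, n = 5 each), with limma adjusted p-values of 0.0717 and 0.0854. Without CCl4 replicate 5 both passed the threshold, at 0.0297 and 0.0341, and without CCl4 replicate 2 Cd72 passed at 0.0406. Among probe sets above the median brightness alone, both passed as well, at 0.0381 and 0.0461. Beside those, no fit that left out 1 array called either gene, with limma adjusted p up to 0.193 for Cd72 and 0.211 for Cd37. The methods' t-test gave them adjusted p-values of 0.195 and 0.202. The other 2 genes, Blnk and Btk, which encode signalling proteins shared by B and myeloid cells, differed by 0.68 and 0.43 (limma adjusted p = 0.154 and 0.382; named after their values were seen).

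The 11 measured further NK and cytotoxic genes had 0 calls by limma and 0 at an unadjusted p under 0.05, and 11 of 11 intervals lay within 1 either way. Ifng, the cytokine interferon gamma of NK and T cells, differed by 0.15, and Fasl, a death ligand of cytotoxic cells, by -0.08 (limma adjusted p = 0.607 and 0.738). Of 10 measured genes of T cell activation and exhaustion, 0 were called and 1, Havcr2, was higher at an unadjusted p under 0.05. Havcr2 encodes the checkpoint receptor TIM-3, which myeloid cells carry too, and read 2.57, 3.33, 2.07, 3.66 and 2.37 in CCl4 livers, against 1.81, 1.93, 1.99, 1.91 and 1.67 in oil livers, without overlap (difference 0.94, limma adjusted p = 0.178). Lag3, a checkpoint receptor of T cells, differed by 0.20 (limma adjusted p = 0.553). The 12 measured lymphocyte growth cytokines had 0 calls by limma and 0 at an unadjusted p under 0.05, with Il18, an activator of NK cells, at -0.34 and Flt3l, a growth factor of lymphoid and dendritic cells, at 0.12 (limma adjusted p = 0.646 and 0.670). The Il18 value was -0.12 without CCl4 replicate 4, which read 2.69 where the other CCl4 arrays read 3.52 to 3.93.

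**Figure D4:**
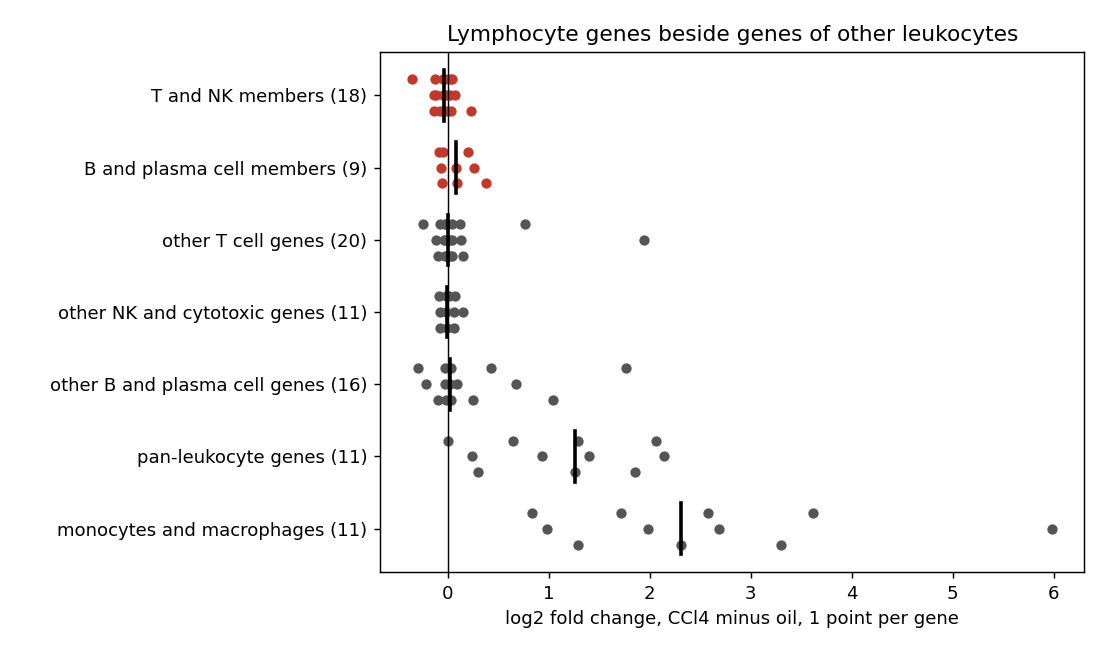
Log2 fold change of each measured gene (x axis, CCl4 minus oil; 1 point per gene, spread vertically only for legibility) in lists of lymphocyte genes and, for comparison, of all leukocytes and of monocytes and macrophages, with bars for list medians. The member lists centre on -0.03 and 0.08, and the pan-leukocyte and macrophage lists on 1.26 and 2.31.

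Markers of other cells moved on the same arrays. Of the 11 measured pan-leukocyte genes, 1 rose by limma, 10 were higher at an unadjusted p under 0.05, and the median log2 fold change was 1.26, with a list mean of 3.75 to 5.12 in CCl4 livers and 3.19 to 3.58 in oil livers. Ptprc, the common leukocyte antigen CD45 that lymphocytes also carry, read 4.69, 5.37, 4.08, 4.51 and 3.52 in CCl4 livers, against 2.79, 3.05, 3.29, 3.57 and 3.0 in oil livers. Only CCl4 replicate 5 lay inside the oil range. The difference of Ptprc was 1.29 ± 0.30 (SE, n = 5 each, limma adjusted p = 0.0960). It passed the threshold without that array, at 0.0247, and in no other fit that left out 1 array, with adjusted p up to 0.226. The gene that rose was Laptm5, a lysosomal protein of blood cells, at 1.86 (limma adjusted p = 0.0364), a call kept in only 1 of the 10 fits that left out 1 array, the one without CCl4 replicate 5, with adjusted p up to 0.114 in the others. Ptprcap, a CD45 partner found mainly in lymphocytes, was the 1 gene of the 11 not higher at an unadjusted p under 0.05. Its difference was 0.00, with a confidence interval between -0.44 and 0.44 (limma adjusted p = 0.997), and it was named after its values were seen. Of the 11 genes, 5 had every CCl4 array above every oil array, beside 2.73% of all probe sets. Besides Laptm5 these were Cd48, Cd52, Coro1a and Arhgdib, also named after their values were seen. They differed by 0.93, 2.06, 0.65 and 1.26, with limma adjusted p-values of 0.0735, 0.137, 0.260 and 0.104. Ikzf1 and Was, named in the same way, differed by 0.24 and 0.30 with overlapping groups (limma adjusted p = 0.370 and 0.206). The part of lymphocytes in the values of this list was not tested.

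Among 11 measured genes of monocytes and macrophages, limma called 5 as higher, 11 were higher at an unadjusted p under 0.05, and their median log2 fold change was 2.31. The list mean was 4.75 to 7.0 in CCl4 livers and 3.24 to 3.79 in oil livers, so that the groups did not overlap. Cd68, a lysosomal macrophage protein, read 8.32, 8.73, 7.25, 8.25 and 6.45 in CCl4 livers, against 5.36, 5.51, 5.67, 5.56 and 5.32 in oil livers, a rise of 2.31 ± 0.38 (SE, n = 5 each; limma adjusted p = 0.0276) whose call was lost without CCl4 replicate 1, CCl4 replicate 4 or any 1 oil replicate, with adjusted p up to 0.0942. Gpnmb, a glycoprotein of lipid-laden macrophages, rose by 5.99 (limma adjusted p = 0.00134) and was called in every fit run. Stellate cell and fibroblast genes rose for 7 of 10, among them Col1a1, a chain of type I collagen, by 2.54 (limma adjusted p = 0.0237), a call lost without CCl4 replicate 1 or any 1 of oil replicates 1, 2, 3 and 5, with adjusted p up to 0.0821. Of the markers of dendritic cells, neutrophils, hepatocytes, sinusoidal endothelium and lymphoid stroma, 0 were called by limma. Measured genes numbered 8, 9, 5, 7 and 5 in that order of lists. Of them, 2, 4, 0, 2 and 0 were higher at an unadjusted p under 0.05, beside 7.03% of all probe sets. The medians were 0.07, 0.54, -0.02, 0.20 and -0.00 in the same order. The part of these other cells in the values of Cd72, Cd37, Il7r, Lcp2, Havcr2 and Cd22 was not tested.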

How the data were processed

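Total RNA of 10 livers (5 CCl4, 5 oil; the labels call each a biological replicate) was copied with a kit for whole transcripts, given a biotin label and read on Affymetrix arrays. The array is Mouse Exon 1.0 ST in the series text and in the probe table used here, and Mouse Gene ST 1.0 in the methods. The authors deposited 1 log2 value per probe set and array. The log2 scale was inferred, because the largest value, 13.4, fits under the logarithm of a scanner maximum. The methods name GenePix for image processing. How probes were corrected for background, normalized and summarised is not given in the sources used here. No detection calls or scan batches were used, and precision is limited by the number of arrays.

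Of 23332 probe sets, 14996 had 1 gene symbol, 1019 several and 7317 none. Genes were named only from single-symbol probe sets, with the brightest by mean over all 10 arrays standing for a gene. Values were used as deposited and CCl4 was compared with oil by limma 3.58.1 (lmFit and eBayes, R 4.3.3), two-sided, at a threshold of 0.05 on the Benjamini-Hochberg p over all probe sets. The procedure was run on simulated data with planted changes larger than any difference of the members. That run gives no power for differences of the sizes seen here.

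Members and lists were chosen with earlier results of these data known. The other lists covered further T cell, NK and cytotoxic, and B and plasma cell genes, T cell activation and exhaustion, lymphocyte chemokines and receptors, lymphocyte growth cytokines, pan-leukocyte genes, and markers of monocytes and macrophages, dendritic cells, neutrophils, hepatocytes, stellate cells and fibroblasts, sinusoidal endothelium and lymph node or spleen stroma. Every member was named, and of each other list the genes past the threshold (up to 4) or, where none passed, up to 2 with the smallest unadjusted p, with Cd68, Ptprc, Col1a1 and Alb in addition. The text prints a part of these, and genes outside the rule are marked.

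Alternatives were quantile normalization, centring each array on its median, probe sets above the median brightness only, array quality weights, the replicate number as a block, a mean-variance trend with robust estimation, the methods' t-test, the mean of a gene's probe sets, leaving out each array, and leaving out oil replicates 1 and 2 together, which an earlier account of these data set apart by clock genes. Nothing in the labels pairs the same-numbered livers.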

Additional observations from a re-analysis of the deposited data

Results flagged for a closer look

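A sample stood apart from the rest of its group, by the gap to its nearest neighbour relative to the group's range, in 4 of 54 groups of member genes and in 3 of 64 groups of other named genes. Chance flags about 1 in 20 such groups. For Cd79a, the B cell receptor chain, CCl4 replicate 5 read 2.85, with the next CCl4 array at 2.15. For Zap70, the T cell receptor kinase, CCl4 replicate 1 read 3.165, with the next CCl4 array at 3.0. Pou2af1, the B cell coactivator, was flagged in both groups and in opposite directions, with CCl4 replicate 5 at 1.837 below the other CCl4 arrays and oil replicate 5 at 2.269 above the other oil arrays. Among genes of other lists, CCl4 replicate 1 read 5.108 for Cxcl13, the chemokine of B cell follicles, where the next CCl4 array was at 3.49 and the log2 fold change was 0.84 (limma adjusted p = 0.499). CCl4 replicate 4 read 12.37 for Ttr, the hepatocyte protein transthyretin, below the other CCl4 arrays, and CCl4 replicate 2 read 8.469 for Col1a2, a chain of type I collagen, above them.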

How the results depend on the processing

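No member was called in any of the 19 alternatives, and 16 of the 27 kept the sign of their difference in all of them. With the replicate block, Cd22 had an adjusted p of 0.172 and calls over all probe sets fell to 30 higher and 6 lower, against 147 and 21 without it. Same-numbered livers deviated together with r between -0.04 and 0.16 and did not all correlate best with their own number, so the numbers were not taken as pairs. Calls over all probe sets were 192 higher and 39 lower under quantile normalization, 145 and 36 under median centring, 251 and 47 among probe sets above the median brightness, which held 5 members, 12 and 2 by the methods' t-test, 12 and 11 without oil replicates 1 and 2, and 30 to 259 higher and 5 to 40 lower when 1 array was left out. Median centring moved the median of all probe sets to -0.05, that of all members to -0.079 and that of B and plasma cell members to 0.021, and the brightness limit left 1 B cell member, at 0.26. The 1 call in the further lymphocyte lists became 3 above the brightness limit, 0 under the block, by the t-test and without oil replicates 1 and 2, and 0 to 5 without 1 array. The 1 pan-leukocyte call became 2 under quantile normalization and above the brightness limit, 0 under the block, by the t-test and without oil replicates 1 and 2, and 0 to 6 without 1 array, with 6 without CCl4 replicate 5 and 0 otherwise. The 12 calls among markers of other cells became 3 under the block, 2 by the t-test, 2 without oil replicates 1 and 2 and 5 to 17 without 1 array.

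Signs turned for small differences only. They were -0.047 and -0.030 for Cd5 under quantile normalization and median centring, and, under median centring, -0.033 for Icos, -0.0099 for Prf1 and -0.027 for Ncr1. Under array weights they were 0.0086 for Nkg7, 0.0027 for Gzma, 0.00033 for Gzmb and 0.044 for Eomes, and Alb turned to 0.0066 under quantile normalization. Without oil replicates 1 and 2 they were 0.00038 for Cd8a, 0.074 for Nkg7, 0.035 for Gzma, 0.0083 for Gzmb, 0.066 for Eomes and 0.0014 for Tbx21. Leaving out 1 array spread Cd8a between -0.072 and 0.0063, Cd5 between -0.0067 and 0.063, Icos between -0.12 and 0.14, Nkg7 between -0.093 and 0.063, Gzma between -0.044 and 0.037, Gzmb between -0.12 and 0.028, Ncr1 between -0.0068 and 0.056, Eomes between -0.048 and 0.053, Mzb1 between -0.12 and 0.0057, Alb between -0.045 and 0.012 and Ttr between -0.14 and 0.015. The causes were not tested. How far each probe set lay above background is unknown.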
